A study of Mus musculus with 19 samples.

Results

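The HOX genes of the 4 mouse clusters were examined together with the MEIS and PBX genes, whose proteins bind DNA alongside HOX proteins. Members were every gene name of the deposited count table made of Hox, a cluster letter from a to d and a number, or of Meis or Pbx and a number. This gave 46 of 23458 genes: 11 Hoxa, 10 Hoxb, 9 Hoxc and 9 Hoxd genes, 3 MEIS genes and 4 PBX genes. The rule uses gene names only, and it was set with earlier results of these data known.

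HOX proteins are homeodomain transcription factors encoded in clusters, and the order of the genes along a cluster follows the order in which they are used along the body axis. In blood, the A and B clusters are active in stem and progenitor cells and are switched off as cells mature. MEIS and PBX proteins belong to the TALE class of homeodomain proteins, form complexes with HOX proteins on DNA and sharpen which sites they bind. Hoxa9 together with Meis1 is a classic pair in myeloid leukemia, and both respond to the MLL histone methyltransferase, while Polycomb complexes hold the clusters silent in mature cells.

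RNA was measured in 2 mouse models, both on the C57BL/6 strain, of leukemia driven by FLT3-ITD, an internal tandem duplication that keeps the receptor tyrosine kinase FLT3 signalling. Dnmt3a, a DNA methyltransferase that sets new CpG methylation, was deleted or intact. In the retroviral model the donor marrow carried Mx1-cre in every group, was transduced with a murine stem cell virus (MSCV) vector and went into lethally irradiated recipients, from which CD4+CD8+ donor cells were sorted. KO-ITD (n = 4) stands for Dnmt3a f/f marrow with MSCV FLT3-ITD-GFP and WT-ITD (n = 3) for Dnmt3a +/+ marrow with the same vector, both leukemias. KO-GFP (n = 2) and WT-GFP (n = 2) stand for the same 2 Dnmt3a genotypes with MSCV GFP alone, and these cells were CD4+CD8+ thymocytes. In the knock-in model every group carried the duplication in 1 Flt3 allele, and whole marrow was taken with no sort. KO-KI (n = 1) was an ER-cre+ Dnmt3a f/f leukemia, HET-KI (n = 2) were ER-cre+ Dnmt3a f/+ leukemias, and WT-KI (n = 3) was pre-leukemic marrow, ER-cre- and Dnmt3a f/f.

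The models carry limits that bear on every comparison below. Donor cells were enriched for Sca-1 in all KO-ITD samples and for ckit in both KO-GFP samples. WT-ITD replicates 1, 2 and 3 came from Sca-1-enriched, ckit-enriched and whole marrow, and the enrichment of WT-GFP is not stated. KO-ITD replicates 1 and 2 and WT-ITD replicate 2 were taken from marrow, and the other retroviral samples from thymus. The processing notes of KO-ITD replicates 3 and 4 and of all knock-in samples list Cuffdiff 2.2.1. Those of the other samples list Cuffdiff 2.1.1. The vector drives FLT3-ITD from a retroviral promoter, whereas the knock-in allele uses the mouse gene's own. Mx1-cre is driven by an interferon-responsive promoter that is not limited to blood cells, ER-cre encodes Cre fused to the estrogen receptor, and how either was induced is not stated. Replicates are called biological but are not tied to animals, so a p-value covers the spread among these samples and no more, and age and sex are not stated.

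The 19 sequenced samples make 17 libraries with total estimated counts of 4933890 to 25331908, and levels are given as CPM, counts scaled to a library of 1000000. Dnmt3a itself stood at 53 to 127 CPM in KO-ITD against 180 to 238 in WT-ITD, at 144 and 207 in KO-GFP against 250 and 257 in WT-GFP, and at 36.5 in KO-KI and 47.4 and 55 in HET-KI against 130 to 153 in WT-KI. The count also covers exons that Cre leaves in place, so it is only a partial check of the labels. Xist, looked at after its values were seen, was above 100 CPM in all 4 GFP libraries and in KO-ITD replicate 2 and WT-ITD replicate 3, and at most 2.26 CPM in the other 11 libraries. The 9 double-positive thymocyte markers summed to 1890 to 7500 CPM in KO-ITD, 5840 to 9990 in WT-ITD, 11900 to 13600 in KO-GFP and 12100 to 12700 in WT-GFP, and to 6.87 to 284 CPM in the knock-in samples. The 11 granulocyte-monocyte markers summed to 28.4 to 1520 CPM in the retroviral libraries and to 3150 to 16500 CPM in the knock-in ones. Stem and progenitor markers (7 genes) summed to 2.51 to 200 CPM in the retroviral libraries, against 270 CPM in KO-KI, 322 and 1280 in HET-KI and 1660 to 2500 in WT-KI. Stromal markers (10 genes) summed to 138 to 2830 CPM in KO-ITD, with replicate 4 the highest, 4.11 to 134 in WT-ITD, 6.69 to 9.08 in the GFP libraries and 66.3 to 294 in the knock-in libraries. Erythroid markers (7 genes) summed to 292 to 1150 CPM in KO-ITD, 51.9 to 510 in WT-ITD, 6.32 to 77.8 in the GFP libraries and 32.8 to 518 in the knock-in libraries. Megakaryocyte markers (6 genes) reached 130 CPM in the retroviral libraries and 513 CPM in the knock-in ones, and B lineage markers (6 genes) 148 and 37.1 CPM.

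On build mm9, whose gene models the authors deposited, the Hoxa genes from Hoxa2 to Hoxa13 run from 52112510 to 52210874 on chromosome 6 (minus strand) and the Hoxb cluster from 96055675 to 96229567 on chromosome 11 (plus strand). The Hoxc cluster runs from 102751562 to 102867283 on chromosome 15 and the Hoxd cluster from 74506367 to 74603199 on chromosome 2, both on the plus strand. Meis1 lies at chr11:18780431-18918972 and Meis2 at chr2:115687000-115890794, both on the minus strand, and Meis3 at chr7:16760729-16771852 on the plus strand. Pbx3 at chr2:34027429-34227556 is on the minus strand, and Pbx2 at chr17:34729416-34734286 and Pbx4 at chr8:72356603-72396191 on the plus strand. The counts sum over all exons of a gene, and a gene's place within its cluster is that of these models.

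The promoters of 4 members are printed because the study varies an enzyme that methylates CpG, and because these genes carry the main patterns: Hoxa9, Meis1 and Meis3 passed the test between the models, and Hoxb4 is the HOX gene found in both retroviral leukemia groups. Each is the 250 bases before the gene's start, 5′ to 3′ on the gene's strand, from RefSeq on GRCm38.p6, with CpG dinucleotides in capitals.
Hoxa9: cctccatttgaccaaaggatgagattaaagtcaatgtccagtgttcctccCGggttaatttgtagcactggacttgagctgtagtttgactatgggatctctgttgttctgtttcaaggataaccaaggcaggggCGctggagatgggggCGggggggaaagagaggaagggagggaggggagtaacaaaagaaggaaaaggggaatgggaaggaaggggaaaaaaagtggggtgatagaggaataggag
Hoxb4: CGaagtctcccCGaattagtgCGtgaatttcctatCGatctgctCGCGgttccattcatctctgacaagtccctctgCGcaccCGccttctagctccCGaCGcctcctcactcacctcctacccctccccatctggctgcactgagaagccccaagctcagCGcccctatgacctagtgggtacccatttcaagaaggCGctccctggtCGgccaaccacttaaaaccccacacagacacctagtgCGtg
Meis1: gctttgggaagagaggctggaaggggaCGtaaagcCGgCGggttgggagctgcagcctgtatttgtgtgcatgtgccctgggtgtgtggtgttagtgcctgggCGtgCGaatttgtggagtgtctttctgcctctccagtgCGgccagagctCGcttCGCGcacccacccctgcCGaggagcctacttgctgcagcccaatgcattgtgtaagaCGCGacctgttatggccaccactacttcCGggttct
Meis3: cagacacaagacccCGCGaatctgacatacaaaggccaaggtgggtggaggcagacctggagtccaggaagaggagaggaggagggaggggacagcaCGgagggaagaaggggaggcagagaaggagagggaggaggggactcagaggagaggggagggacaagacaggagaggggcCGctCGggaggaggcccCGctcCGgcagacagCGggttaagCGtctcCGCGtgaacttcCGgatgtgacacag
These windows lie at chr6:52227371-52227620 (minus) for Hoxa9, chr11:96318017-96318266 (plus) for Hoxb4, chr11:19018970-19019219 (minus) for Meis1 and chr7:16175145-16175394 (plus) for Meis3, all on GRCm38.p6. They hold 3 CpG in Hoxa9, 14 in Hoxb4, 13 in Meis1 and 12 in Meis3. RefSeq windows were found for 27 of the 46 members, 29 windows in all, with a median of 12 CpG (2 to 35) against a median of 6 over all 32851 windows. The MEIS-type motif TGACAG, searched on both strands, was in 6.9% of member windows and 15.9% of all windows. CCAAT, also on both strands, was in 58.6% of member windows and 33.8% of all, and TATAAA in 17.2% and 12.4%. Of the 4 printed windows, the one of Meis1 held CCAAT and none held TGACAG or TATAAA. Methylation was not measured in the data used here, and a match is a description of letters only.

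Of the 46 members, 21 were expressed, taken as a mean of at least 1 CPM in at least 1 group. Among them were Hoxa2, Hoxa3, Hoxa4, Hoxa5, Hoxa7, Hoxa9 and Hoxa10, Hoxb2, Hoxb3, Hoxb4, Hoxb5, Hoxb6, Hoxb8 and Hoxb9, all 3 MEIS genes, and Pbx2, Pbx3 and Pbx4. No Hoxc and no Hoxd gene reached that level in any group. KO-ITD expressed 7 members, WT-ITD 6, KO-GFP 6, WT-GFP 5, KO-KI 12, HET-KI 15 and WT-KI 20. Pbx2 and Pbx4 were expressed in every group. The number expressed in at least 1 group was 25, 17 and 15 at thresholds of 0.5, 2 and 5 CPM.

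The remaining members were low or silent. Hoxc12, Hoxd1 and Hoxd13 had no count in any library, and 18 others had at most 14 counts in all and were too low for any test: Hoxa11, Hoxa13, Hoxb1, Hoxb13, Hoxc4, Hoxc5, Hoxc8, Hoxc9, Hoxc10, Hoxc11, Hoxc13, Hoxd3, Hoxd4, Hoxd8, Hoxd9, Hoxd10, Hoxd11 and Hoxd12. Their highest value was 1.13 CPM. The 25 members that were tested are 18 HOX genes (9 Hoxa, 8 Hoxb and Hoxc6) and the 7 MEIS and PBX genes. Since a gene could be kept through the group where it is high, counts and medians below describe those 25 and not the 46.

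The summed level of the 39 HOX genes separated the models. It averaged 4.9 CPM in KO-ITD (2.69 to 10.6), 5.85 in WT-ITD (5.46 to 6.2), 4.25 in KO-GFP (3.44 and 5.05) and 4.14 in WT-GFP (2.32 and 5.96). It was 29 CPM in KO-KI, averaged 72 in HET-KI (35.9 and 108) and 118 in WT-KI (93.4 to 153). Every knock-in library was thus above every retroviral one, and the knock-in leukemias were spread over a wide range, with HET-KI replicate 1 inside the range of WT-KI. The Hoxa genes summed to 1.29 CPM in KO-ITD, 0.377 in WT-ITD, 3.28 in KO-GFP, 2.97 in WT-GFP, 19.5 in KO-KI, 52.3 in HET-KI and 70.6 in WT-KI. For the Hoxb genes these means were 2.76, 5.29, 0.909, 1.05, 9.17, 19.6 and 46.1 CPM in the same order of groups. In bulk RNA, fewer cells that express a gene and less RNA per cell cannot be told apart. Summed, the stem and progenitor markers had the same order of the knock-in groups. They had 270 CPM in KO-KI, 322 and 1280 in HET-KI and at least 1660 in WT-KI. Kit, from this list, did not follow that order between the leukemias (152 CPM in KO-KI, 31 and 158 in HET-KI). The part of these markers in the HOX levels was not tested.

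**Figure D1:**
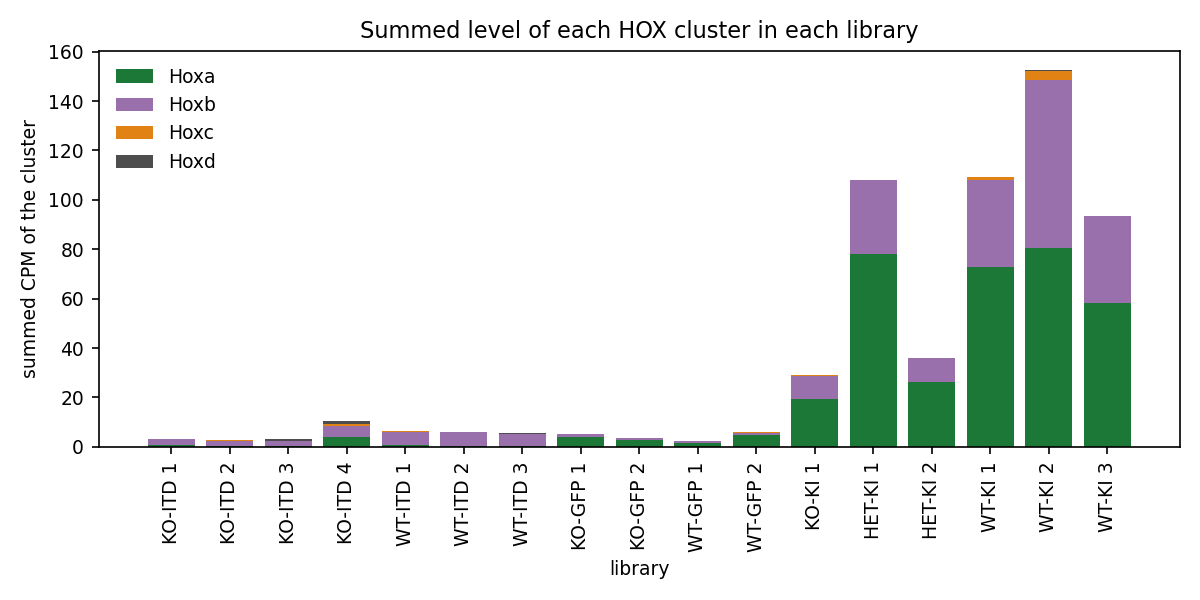
Summed level of the HOX genes of each cluster in every library, in CPM, as stacked bars by library in the 7 groups. The retroviral libraries lie between 2.32 and 10.6 CPM, and the knock-in libraries between 29 and 153 CPM, nearly all of it from Hoxa and Hoxb.

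The levels of the tested members are shown together in the map of genes by library, before each is described. Among HOX genes with retroviral counts, Hoxa5 and Hoxa7 were seen mainly in the GFP thymocytes, and Hoxb4 in the leukemias.

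**Figure D2:**
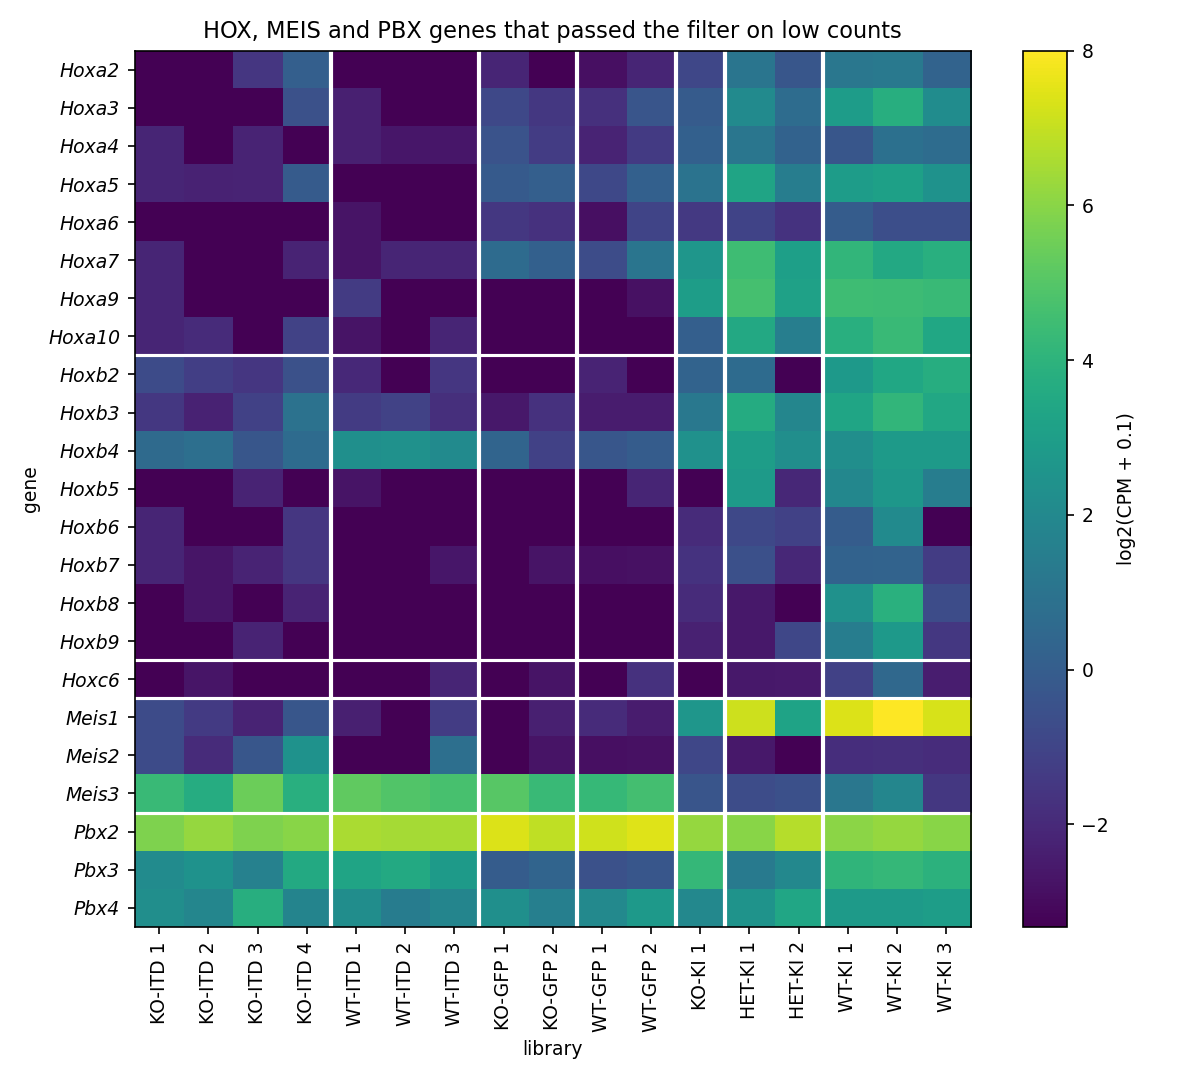
Heat map of log2(CPM + 0.1) for tested members (down the page, by family) in each of the 17 libraries (across, by group). Hoxa7, Hoxa9 and Meis1 are higher in every knock-in library than in any retroviral one, Meis3 is lower, and Pbx2 has at least 55.5 CPM in all.

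Hoxa9, a gene of stem and progenitor cells whose overexpression drives myeloid leukemia in mice, was close to absent from the sorted cells. It had 0.127, 0, 0 and 0 CPM in KO-ITD, 0.295, 0 and 0 in WT-ITD, 0 and 0 in KO-GFP and 0 and 0.0405 in WT-GFP. In the knock-in model it had 7.72 CPM in KO-KI, 25.4 and 8.94 in HET-KI and 22.2, 21.3 and 20.6 in WT-KI. KO-KI and HET-KI replicate 2 were below all 3 WT-KI libraries, and HET-KI replicate 1 was above them. Hoxa10, which acts in myeloid progenitors, had 0.127, 0.165, 0 and 0.364 CPM in KO-ITD, 0.0492, 0 and 0.123 in WT-ITD and 0 in all GFP libraries. It had 0.965 CPM in KO-KI, 11.4 and 2.79 in HET-KI and 14.2, 20.2 and 10.7 in WT-KI. HET-KI replicate 1 lay inside the WT-KI range, and the other 2 knock-in leukemias lay below it.

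Hoxa7, a neighbour of Hoxa9 that is also a target of leukemia viruses in mice, separated the retroviral leukemias from the GFP thymocytes. It had 0.127, 0, 0 and 0.121 CPM in KO-ITD and 0.0492, 0.123 and 0.123 in WT-ITD, against 1.47 and 1.01 in KO-GFP and 0.52 and 1.99 in WT-GFP. The knock-in values were 6.11 CPM in KO-KI, 22.6 and 8.3 in HET-KI and 17.2, 11.3 and 14 in WT-KI. Every GFP library was above every retroviral leukemia, and every knock-in library above every GFP library. Hoxa5, which affects the choice between erythroid and myeloid fates, followed a like order with 1 exception. It had 0.127, 0.11, 0.12 and 0.85 CPM in KO-ITD and 0 in all 3 WT-ITD leukemias, against 0.831 and 0.962 in KO-GFP and 0.44 and 1.01 in WT-GFP. It had 1.88 CPM in KO-KI, 9.75 and 2.65 in HET-KI and 7.64, 8.67 and 5.41 in WT-KI. KO-ITD replicate 4 reached the GFP range and the other leukemias did not.

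Hoxa6, between Hoxa5 and Hoxa7 in the cluster, was low throughout. It had 0 CPM in all 4 KO-ITD leukemias and 0.0492, 0 and 0 in WT-ITD, against 0.256 and 0.203 in KO-GFP and 0.04 and 0.405 in WT-GFP. It had 0.268 CPM in KO-KI, 0.385 and 0.215 in HET-KI and 0.889, 0.566 and 0.553 in WT-KI. The GFP and knock-in leukemia ranges overlapped for this gene. Hoxa4 had 0.127, 0, 0.12 and 0 CPM in KO-ITD, 0.0985, 0.0613 and 0.0614 in WT-ITD, 0.639 and 0.304 in KO-GFP and 0.12 and 0.284 in WT-GFP. In the knock-in model Hoxa4 had 1.02 CPM in KO-KI, 2.05 and 1.07 in HET-KI and 0.711, 1.7 and 1.49 in WT-KI. KO-KI and HET-KI each overlapped the WT-KI range, KO-KI was just below both HET-KI libraries, and all stood above the retroviral libraries.

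Hoxa3 and Hoxa2, from the 3′ end of the cluster and best known from the neck and the hindbrain, were highest in knock-in marrow. Hoxa3 had 0, 0, 0 and 0.607 CPM in KO-ITD, 0.0985, 0 and 0 in WT-ITD, 0.447 and 0.253 in KO-GFP and 0.2 and 0.689 in WT-GFP. It had 0.858 CPM in KO-KI, 4.23 and 1.5 in HET-KI and 7.47, 13.8 and 4.43 in WT-KI, with every knock-in leukemia below every WT-KI library. Hoxa3 shares 28 bases with 2700086A05Rik on the other strand, and the sources used here do not say whether strand was used in counting. Hoxa2 had 0, 0, 0.241 and 0.971 CPM in KO-ITD, 0 in all WT-ITD, 0.128 and 0 in KO-GFP and 0.04 and 0.122 in WT-GFP, against 0.429 in KO-KI, 1.99 and 0.716 in HET-KI and 2.13, 2.26 and 1.11 in WT-KI. Both genes had their highest retroviral leukemia value in KO-ITD replicate 4, the library with the most stromal marker RNA.

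Hoxb4, which expands blood stem cells when overexpressed, was the only HOX gene at 1 CPM or more in both retroviral leukemia groups. It had 1.4, 1.65, 0.722 and 1.46 CPM in KO-ITD and 4.92, 5.27 and 4.24 in WT-ITD, against 1.15 and 0.355 in KO-GFP and 0.72 and 0.891 in WT-GFP. It had 5.2 CPM in KO-KI, 7.7 and 4.79 in HET-KI and 4.8, 7.16 and 7.11 in WT-KI. All WT-ITD leukemias were above all KO-ITD leukemias, and WT-ITD overlapped the knock-in groups. Hoxb3, a neighbour with a partly shared role in stem cells, had 0.255, 0.11, 0.361 and 1.82 CPM in KO-ITD, 0.295, 0.368 and 0.184 in WT-ITD, 0.0639 and 0.203 in KO-GFP and 0.08 and 0.081 in WT-GFP. It had 2.2 CPM in KO-KI, 12.3 and 3.58 in HET-KI and 10.1, 17.5 and 10.8 in WT-KI. Again KO-ITD replicate 4 was the highest retroviral leukemia, and HET-KI replicate 1 alone among the knock-in leukemias reached the WT-KI range.

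Hoxb2, at the 3′ side of the B cluster, had its highest levels in pre-leukemic marrow. It had 0.509, 0.33, 0.241 and 0.607 CPM in KO-ITD, 0.148, 0 and 0.246 in WT-ITD, 0 and 0 in KO-GFP and 0.12 and 0 in WT-GFP. It had 1.13 CPM in KO-KI and 1.47 and 0 in HET-KI, against 6.93, 10.6 and 13.1 in WT-KI. Every leukemia of either model was below every WT-KI library, but Hoxb2 passed the test neither in HET-KI (edgeR adjusted p = 0.146) nor in KO-KI (adjusted p = 0.388) against WT-KI. The genes on the 5′ side of the B cluster varied among the WT-KI libraries. Hoxb8, which blocks myeloid maturation when forced on, had 0.161 CPM in KO-KI and 0.0641 and 0 in HET-KI, against 5.16, 14.3 and 0.511 in WT-KI. Hoxb9 had at most 0.429 CPM in the knock-in leukemias, against 2.67, 6.6 and 0.255 in WT-KI, and Hoxb6 at most 0.449 CPM in those leukemias, against 0.889, 4.15 and 0 in WT-KI. WT-KI replicate 2 was the highest and replicate 3 the lowest for each of these 3 genes. Hoxb5 had 0 CPM in KO-KI and 7.05 and 0.143 in HET-KI, against 3.73, 6.22 and 2.68 in WT-KI.

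Meis1, the TALE cofactor that speeds leukemia driven by Hoxa9, had the widest range of all members. It had 0.509, 0.275, 0.12 and 0.728 CPM in KO-ITD, 0.0985, 0 and 0.307 in WT-ITD, 0 and 0.101 in KO-GFP and 0.16 and 0.081 in WT-GFP. It had 6.06 CPM in KO-KI and 139 and 9.3 in HET-KI, against 170, 290 and 158 in WT-KI. The 2 HET-KI leukemias were far apart, and all 3 knock-in leukemias were below WT-KI. Meis3, a MEIS gene with a known role in the hindbrain, showed the opposite order of the models. It had 20.4, 12.6, 44 and 14 CPM in KO-ITD, 37.1, 30.2 and 25.7 in WT-ITD, 33.2 and 20.3 in KO-GFP and 19.2 and 24.8 in WT-GFP, against 0.697 in KO-KI, 0.513 and 0.572 in HET-KI and 2.13, 3.58 and 0.255 in WT-KI. All WT-ITD libraries were above both WT-GFP libraries, KO-ITD overlapped each of the other 3 retroviral groups, and every retroviral library was above every knock-in library. Meis2 had 0.509, 0.165, 0.722 and 5.34 CPM in KO-ITD and 0, 0 and 1.66 in WT-ITD, and at most 0.429 CPM in any GFP or knock-in library.

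Pbx2, a broadly expressed member, was present at high level everywhere. It had 55.5, 72.8, 56.6 and 63.1 CPM in KO-ITD and 93.6, 90 and 91.8 in WT-ITD, against 169 and 122 in KO-GFP and 146 and 174 in WT-GFP. It had 73.5 CPM in KO-KI, 62.7 and 108 in HET-KI and 64.5, 73.3 and 64.1 in WT-KI. All GFP libraries were above all retroviral leukemias, and all WT-ITD leukemias were above all KO-ITD leukemias.

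Pbx3, which supports Hoxa9-driven leukemia in mouse models, had 4.33, 5.33, 3.01 and 11.8 CPM in KO-ITD and 9.7, 11.8 and 7 in WT-ITD, against 0.894 and 1.16 in KO-GFP and 0.6 and 0.729 in WT-GFP. It had 18.7 CPM in KO-KI and 2.37 and 3.79 in HET-KI, against 16.7, 18.3 and 15.4 in WT-KI. Every retroviral leukemia was above every GFP library, and among the knock-in leukemias KO-KI was above and both HET-KI libraries were below the WT-KI range. Pbx4, known mainly from the testis, was between 2.64 and 13.8 CPM in every library, with group means of 6.38 CPM in KO-ITD, 3.57 in WT-ITD, 3.9 in KO-GFP, 5.43 in WT-GFP, 3.75 in KO-KI, 7.81 in HET-KI and 7.37 in WT-KI.

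Levels of different members can be set side by side once divided by the length of their exons. In KO-ITD, Pbx2 led with a mean of 22.1 CPM per kilobase, followed by Meis3 with 12.8, Pbx4 with 4.73 and Pbx3 with 2.55. Pbx2 and Meis3 were also the leading members in WT-ITD (32.8 and 17.4 CPM per kilobase), KO-GFP (52 and 15) and WT-GFP (57 and 12.4). In HET-KI, Pbx2 led with 30.5 CPM per kilobase, followed by Meis1 with 21.6, Hoxa7 with 7.93 and Hoxa9 with 7.56. The Meis1 mean there rests on 1 of the 2 libraries (139 and 9.3 CPM). In WT-KI, Meis1 led with 59.9 CPM per kilobase, and Pbx2 had 24, Hoxa9 9.41 and Hoxa7 7.27 CPM per kilobase.

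The retroviral leukemias differed from the knock-in leukemias in most of the tested Hoxa genes and in Meis1 and Meis3. Hoxa2, Hoxa3, Hoxa4, Hoxa5, Hoxa6, Hoxa7, Hoxa9, Hoxa10, Hoxb3, Hoxb4 and Meis1 were lower in the retroviral leukemias and Meis3 was higher. In all, 13 of the 25 tested members were called, where 32.1% of all 15508 tested genes passed the same threshold (adjusted p below 0.05). By direction, 12 members were lower, with 17.1% of all genes lower, and 1 was higher, with 15% of all genes higher. The comparison sets the mean of KO-ITD and WT-ITD against the mean of HET-KI and KO-KI on the log2 scale. Here and below, edgeR's quasi-likelihood test gave the p-values, which were adjusted by the Benjamini-Hochberg method over the 15508 genes.

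Hoxa9 was lower by a log2 fold change of -7.56 ± 0.93 (SE; edgeR adjusted p = 0.000129), and Hoxa7 by -6.95 ± 0.68 (adjusted p = 1.93e-05). These low counts make single libraries matter: without WT-ITD replicate 1 the value for Hoxa9 was -9.46, and without KO-ITD replicate 1 it was -8.59, both still past the threshold. Hoxa5 had -6.12 ± 0.82 (adjusted p = 0.000314), and -6.77 without KO-ITD replicate 4 and -5.51 without HET-KI replicate 1. Hoxa10 had -4.63 ± 0.76 (adjusted p = 0.00105; -3.96 without HET-KI replicate 1) and Hoxa4 had -4.16 ± 0.74 (adjusted p = 0.00115). Hoxa3 had -4.3 ± 1.07 (adjusted p = 0.00851), and -6.41 without KO-ITD replicate 4 and -5.52 without WT-ITD replicate 1, and missed the threshold when the groups of the comparison were fitted alone (adjusted p = 0.0608). Hoxa6 had 1 count in the retroviral leukemias and 14 in the knock-in leukemias, a ratio of 27.7 in CPM with a counting interval of 4.22 to 1170 (edgeR adjusted p = 0.00983), and the fitted value moved to -5.16 without WT-ITD replicate 1. The 8 Hoxa genes that passed thus lie from Hoxa2 to Hoxa10 along the cluster.

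Hoxa2 was the least firm of them, with a log2 fold change of -3.98 ± 1.28 (edgeR adjusted p = 0.0345). It missed the threshold without WT-ITD replicate 1 (adjusted p = 0.0633), 2 (0.0579) or 3 (0.0507) and without HET-KI replicate 1 (0.0791) and with the groups of the comparison alone (0.111), and had -4.99 without KO-ITD replicate 4. In the B cluster, Hoxb3 had -3.3 ± 0.68 (edgeR adjusted p = 0.00284; -4 without KO-ITD replicate 4). Hoxb4 had -1.18 ± 0.41 (edgeR adjusted p = 0.0442), and missed the threshold in 12 of 19 alternative analyses, among them those without KO-ITD replicate 1 or 3, without any 1 of the WT-ITD replicates or without HET-KI replicate 1 (adjusted p of 0.0546 to 0.124). For Hoxb4 the retroviral leukemias had 0.722 to 5.27 CPM and the knock-in leukemias 4.79 to 7.7 CPM, so that the ranges overlapped, which those of Hoxa9 did not.

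Among the cofactors, Meis1 was lower in the retroviral leukemias by -6.48 ± 0.75 on the log2 scale (edgeR adjusted p = 5.56e-05). The value was -4.99 without HET-KI replicate 1, the library with 139 CPM, and -7.09 without WT-ITD replicate 3, both past the threshold. Meis3 had 5.41 ± 0.88 (adjusted p = 0.000621). Pbx2, Pbx3 and Pbx4 did not pass: Pbx2 had -0.07 ± 0.18 (adjusted p = 0.797), Pbx3 had 0 ± 0.36 (adjusted p = 1) and Pbx4 had -0.18 ± 0.49. For Pbx3, a mean near the middle hides that KO-KI had 18.7 CPM and the HET-KI leukemias 2.37 and 3.79, on either side of the retroviral leukemias. Over the tested members the median log2 fold change was -3.29, or -3.64 with low-count genes at their bound or count ratio (24 genes), and 0.0816 over all tested genes. A member could pass the filter through the knock-in groups, so these medians are a description only.

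The 2 models differ in much besides FLT3-ITD. The CD4+CD8+ sort, the lineage of the cells and the retroviral or endogenous promoter cannot be told apart from the model in this comparison. The marrow or thymus source overlapped: KO-ITD replicates 1 and 2 and WT-ITD replicate 2 came from marrow, as did every knock-in sample. Every retroviral leukemia was below every knock-in leukemia for Hoxa7, Hoxa9 and Meis1 and above every one for Meis3. The retroviral marrow leukemias are among them, so their side was fixed by that separation. The part of the source was not tested. Dnmt3a genotype was not balanced either: WT-ITD, with intact Dnmt3a, stands on the retroviral side, while HET-KI and KO-KI both carry deleted alleles (Dnmt3a at 36.5 to 55 CPM). KO-ITD shared the side of all retroviral leukemias for Hoxa7, Hoxa9, Meis1 and Meis3, which was fixed by that separation. The part of genotype was not tested. The double-positive thymocyte list moved with the model (9 of 9 genes higher in the retroviral leukemias). So did the granulocyte-monocyte list (10 of 11 lower), the stem and progenitor list (5 of 7 lower) and the megakaryocyte list (5 of 6 lower). Of the erythroid genes 1 of 7 was higher, and none of the 6 B lineage and 10 stromal genes passed. The parts of these cell types in the HOX, MEIS and PBX differences were not tested.

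**Figure D3:**
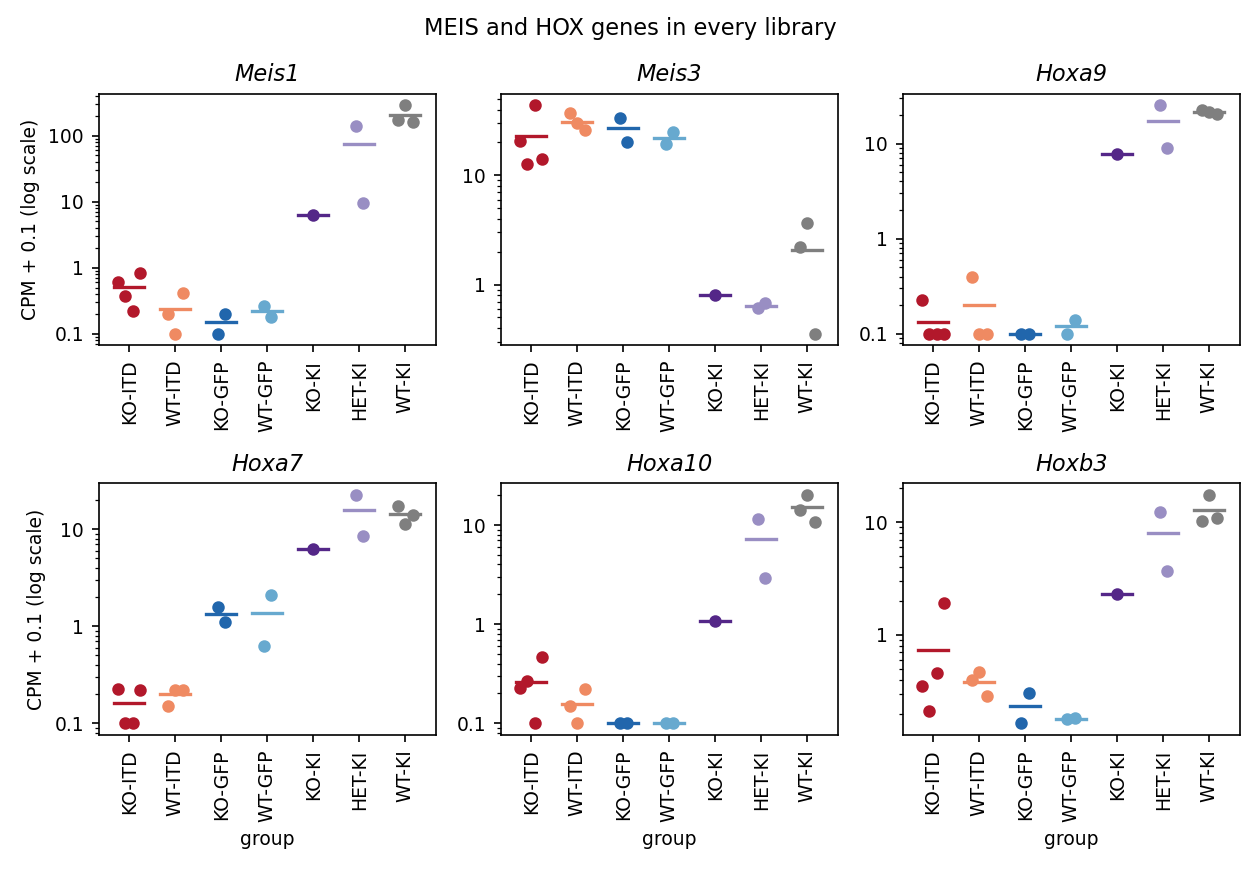
CPM + 0.1 on a log axis for Meis1, Meis3, Hoxa9, Hoxa7, Hoxa10 and Hoxb3 in every library (dots) by group, with bars at the group mean. Meis3 is the gene that is high in the retroviral groups (12.6 to 44 CPM), and the other 5 are higher in every knock-in library than in any retroviral one.

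Deletion of Dnmt3a within the retroviral leukemias changed no member past the threshold. In KO-ITD against WT-ITD, edgeR called 0 of the 25 tested members, where 0.49% of all genes were called (0.206% higher and 0.284% lower). At an unadjusted p under 0.05 there were 4, DESeq2 called 2 (Hoxa5 and Hoxb4, with 8.31% of all genes called) and limma voom called 0. Without KO-ITD replicate 2, edgeR called 1, Hoxa5 (higher in KO-ITD). The member nearest to a call was Hoxb4, which averaged 1.31 ± 0.404 CPM in KO-ITD (SD, n = 4) and 4.81 ± 0.527 in WT-ITD (SD, n = 3). Its log2 fold change was -1.87 ± 0.47 (SE; edgeR adjusted p = 0.0949), and over 17 alternatives it ran from -2.06 to -1.36 with adjusted p of 0.00113 to 0.728, below the threshold with DESeq2 only.

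Hoxa5 had 11 counts in KO-ITD and 0 in WT-ITD, at least 4.55-fold higher against a floor of 3 counts over the WT-ITD group (edgeR adjusted p = 0.0967). Of these, KO-ITD replicate 4 gave the highest level, 0.85 CPM, and its stromal marker sum of 2830 CPM was also the highest of all libraries. Pbx2 averaged 62 ± 7.95 CPM in KO-ITD (SD, n = 4) and 91.8 ± 1.81 in WT-ITD (SD, n = 3), a log2 fold change of -0.57 ± 0.19 (SE; adjusted p = 0.158). Hoxa2 had 10 counts in KO-ITD and 0 in WT-ITD, at least 4.14-fold higher (adjusted p = 0.187). Meis3 averaged 22.7 ± 14.6 CPM in KO-ITD (SD, n = 4) and 31 ± 5.75 in WT-ITD (SD, n = 3) and Pbx3 averaged 6.11 ± 3.89 in KO-ITD and 9.51 ± 2.42 in WT-ITD, and neither passed. The members' median log2 fold change was 1.41, or 1.5 with 19 genes at their value, bound or count ratio, against 0.0686 over all genes. Stromal markers were higher in KO-ITD (1 of 10 called, median log2 fold change 4.17), the stem and progenitor list had a median of 2.25 with 0 of 7 called, and their part in these values was not tested.

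FLT3-ITD leukemias with intact Dnmt3a had more Pbx3 and Hoxb4 and less Hoxa5 than GFP thymocytes. In WT-ITD against WT-GFP, edgeR called 3 of the 25 tested members, where 2.24% of all genes were called: 2 were higher, with 1.35% of all genes higher, and 1 was lower, with 0.89% of all genes lower. Pbx3 averaged 9.51 ± 2.42 CPM in WT-ITD (SD, n = 3) and 0.665 ± 0.0912 in WT-GFP (SD, n = 2), a log2 fold change of 3.82 ± 0.62 (SE; edgeR adjusted p = 0.00758). Hoxb4 averaged 4.81 ± 0.527 CPM in WT-ITD and 0.806 ± 0.121 in WT-GFP, a log2 fold change of 2.57 ± 0.61 (adjusted p = 0.0484). Hoxa5 had 0 counts in WT-ITD and 36 in WT-GFP, at least 12.8-fold lower against 3 counts over the group (adjusted p = 0.0283). With so few libraries each call hung on single ones: without WT-GFP replicate 1 or 2 no member was called, and without WT-ITD replicate 1 or 2 only Pbx3 was. Pbx3 had 3.64 among thymus libraries alone and was the 1 member called there, with 2.44% of all genes called. Among libraries with Xist alone it had 3.39 and was also the 1 call, but WT-ITD is then replicate 3 alone, and the test assumes that it varies like the other groups. Just outside the threshold, Hoxa7 had 5 counts in WT-ITD and 62 in WT-GFP (log2 fold change -3.59 ± 0.87, adjusted p = 0.0514), and Pbx2 averaged 91.8 ± 1.81 CPM in WT-ITD and 160 ± 20 in WT-GFP (-0.8 ± 0.22, adjusted p = 0.0881). Markers of other cell types stood beside these differences. Of the erythroid genes 1 of 7 was higher (Epor; list median 6.82), and their summed level was 51.9 to 510 CPM in WT-ITD and 8.14 and 24.1 in WT-GFP. None of the 10 stromal genes (median 5.36; 4.11 to 134 CPM in WT-ITD and 7.44 and 9.08 in WT-GFP) or the 11 granulocyte-monocyte genes (median 4.14; 28.4 to 790 CPM in WT-ITD and 70 and 88.2 in WT-GFP) passed, and Cd4 was the 1 of 9 double-positive thymocyte genes that was lower. Their part was not tested. The members' median was 0, or -0.55 with 18 genes at their value, bound or count ratio, against 0.0314 over all genes.

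With Dnmt3a deleted, the leukemias again had more Pbx3, and less Pbx2, Hoxa7 and Hoxa6, than GFP thymocytes. In KO-ITD against KO-GFP, edgeR called 4 of the 25 tested members, where 19.6% of all genes were called, so that the share of members called was no higher than that of all genes. Of these 1 was higher, with 9.8% of all genes higher, and 3 were lower, with 9.85% of all genes lower. Pbx3 averaged 6.11 ± 3.89 CPM in KO-ITD (SD, n = 4) and 1.03 ± 0.191 in KO-GFP (SD, n = 2), a log2 fold change of 2.56 ± 0.57 (SE; edgeR adjusted p = 0.0112). Pbx2 averaged 62 ± 7.95 CPM in KO-ITD and 146 ± 33.1 in KO-GFP, a log2 fold change of -1.23 ± 0.21 (adjusted p = 0.00362). Hoxa7 had 2 counts in KO-ITD and 43 in KO-GFP, a ratio of 25.9 in CPM with a counting interval of 6.74 to 221 (edgeR adjusted p = 0.00867). Hoxa6 had 0 counts in KO-ITD and 8 in KO-GFP, at least 3.21-fold lower (adjusted p = 0.0444), and kept its call in 2 of 15 alternatives. Without KO-GFP replicate 1 no member was called, without KO-GFP replicate 2 the count was 2, and without KO-ITD replicate 1, 2 or 3 it was 3. Without KO-ITD replicate 4 it was 5, where 21.2% of all genes were called. Hoxa3 and Hoxa5 were then lower, Hoxa6 was no longer called and Pbx3 was at 2.03 (edgeR adjusted p = 0.0088).

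KO-ITD replicate 4 carries several of the values that run the other way. Of the KO-ITD libraries it had the highest Hoxa2, Hoxa3, Hoxa5, Hoxb3, Meis1, Meis2 and Pbx3 levels. Among thymus libraries alone (KO-ITD replicates 3 and 4), edgeR called 6 of the 25 tested members in KO-ITD against KO-GFP, where 27.1% of all genes were called. Hoxb3, Meis2 and Pbx3 were among those higher. KO-ITD replicates 3 and 4 are also the ones of KO-ITD that list Cuffdiff 2.2.1, so source and record set cannot be told apart. Stromal markers were higher in KO-ITD than in KO-GFP for 9 of 10 genes, and 8 or 9 of those 10 were below 1 CPM in each KO-GFP library. Erythroid markers were higher for 6 of 7 genes, megakaryocyte markers for 3 of 6 and stem and progenitor markers for 1 of 7, and their part was not tested apart from the values without replicate 4 above. The members' median was 2.03, or 0.96 with 19 genes at their value, bound or count ratio, against 0.19 over all genes.

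**Figure D4:**
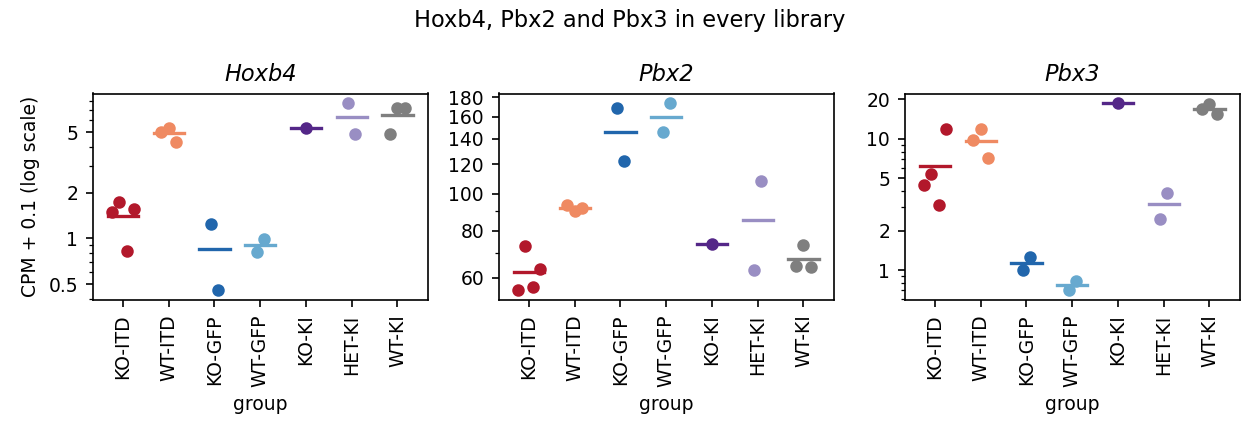
CPM of Hoxb4, Pbx2 and Pbx3 in every library (dots) by group, with bars at the group mean. Hoxb4 is highest among the retroviral groups in WT-ITD (4.24 to 5.27 CPM), Pbx2 in the GFP groups (122 to 174 CPM), and Pbx3 is low in the GFP groups (0.6 to 1.16 CPM) and in HET-KI.

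The leukemia effect was not shown to differ with Dnmt3a status for any member. In the interaction, (KO-ITD minus KO-GFP) minus (WT-ITD minus WT-GFP), edgeR called 0 of the 25 tested members, and 0% of all genes. At an unadjusted p under 0.05 there were 2, and DESeq2 and limma voom called 0 members. These were Hoxb4, with -1.76 on the log2 scale, and Hoxa5, with 4.91 (edgeR adjusted p = 0.819 for each). For Hoxb4 the leukemias stood above GFP thymocytes by 2.57 ± 0.61 with Dnmt3a intact, while with Dnmt3a deleted the means were 1.31 ± 0.404 CPM in KO-ITD and 0.752 ± 0.562 in KO-GFP (SD, n = 4 and 2), with no call. The WT-ITD libraries enter both this contrast and the one against KO-ITD, so these values are not independent of each other.

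In GFP thymocytes, deletion of Dnmt3a was followed by no change in a member that could be told from the spread. In KO-GFP against WT-GFP, edgeR called 0 of the 25 tested members and 0% of all genes. None had an unadjusted p under 0.05, and DESeq2 and limma voom called 0 members. Hoxa7 averaged 1.24 ± 0.323 CPM in KO-GFP and 1.25 ± 1.04 in WT-GFP, Pbx2 146 ± 33.1 and 160 ± 20, and Meis3 26.7 ± 9.12 and 22 ± 3.92 in the same order (SD, n = 2 each). The median log2 fold change was -0.11 over the tested members, also with low genes at their bound or count ratio, and -0.00398 over all genes.

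**Figure D5:**
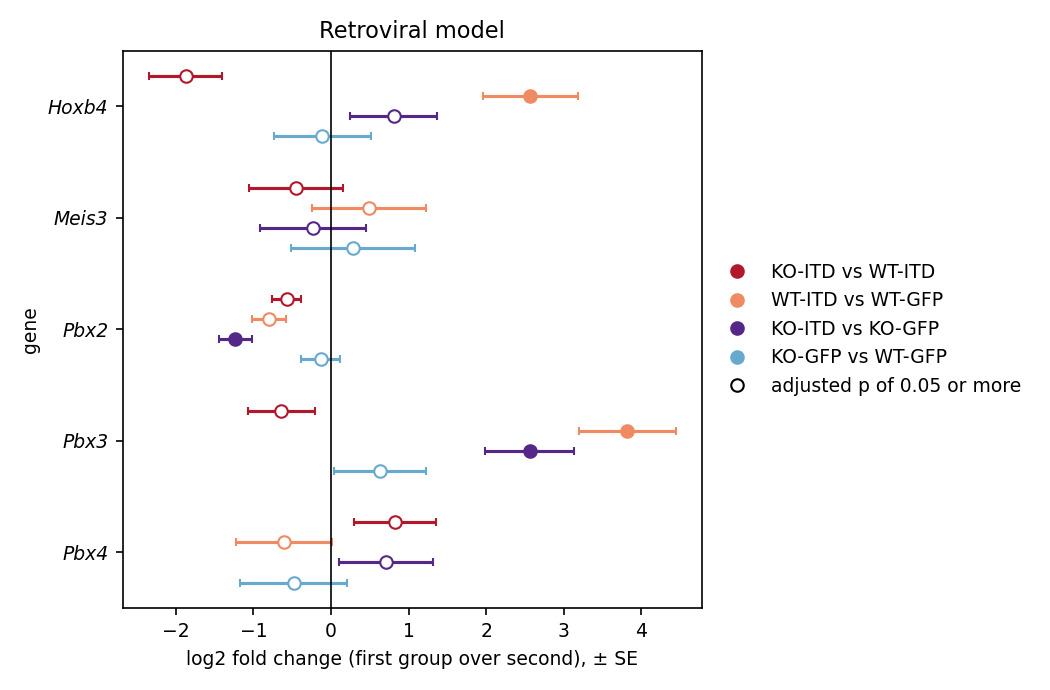
Log2 fold change ± SE for Hoxb4, Meis3, Pbx2, Pbx3 and Pbx4 in KO-ITD against WT-ITD, WT-ITD against WT-GFP, KO-ITD against KO-GFP and KO-GFP against WT-GFP, with filled points where the edgeR adjusted p is below 0.05. Pbx3 is filled and above 0 in both comparisons of leukemia with GFP thymocytes, Hoxb4 is filled in the one with intact Dnmt3a and Pbx2 in the one with Dnmt3a deleted.

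In the knock-in model, the leukemias stood below pre-leukemic marrow in Meis1 and in several HOX genes, but the test called 1 gene only. In HET-KI against WT-KI, edgeR called 1 of the 25 tested members, where 5% of all genes were called (3.43% higher and 1.57% lower). This was Pbx3, which averaged 3.08 ± 1 CPM in HET-KI (SD, n = 2) and 16.8 ± 1.46 in WT-KI (SD, n = 3), a log2 fold change of -2.44 ± 0.57 (SE; edgeR adjusted p = 0.0325). Leaving out any 1 of HET-KI replicate 1 or 2 or WT-KI replicate 1, 2 or 3 ended the call of Pbx3, with edgeR adjusted p of 0.0806 to 0.101 and fold changes of -2.82 to -2.14. Both HET-KI libraries were below all WT-KI libraries in Pbx3, and below KO-KI.

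Meis1 averaged 74.2 ± 91.7 CPM in HET-KI (SD, n = 2) and 206 ± 73 in WT-KI (SD, n = 3), a log2 fold change of -1.47 ± 0.86 (SE; edgeR adjusted p = 0.308). The 2 HET-KI leukemias decide this value: without HET-KI replicate 1, which had 139 CPM, it was -4.47 and passed the threshold, together with Hoxb2. Hoxb2 had -3.77 with all libraries (adjusted p = 0.146). Hoxb8 had 1 count in HET-KI and 117 in WT-KI, a ratio of 100 in CPM with a counting interval of 17.7 to 4000 (edgeR adjusted p = 0.0622). HET-KI replicate 1, with the higher Meis1, Hoxa9, Hoxa10, Hoxb3 and Hoxb5, also had the higher stem and progenitor marker sum, 1280 CPM against 322 in replicate 2. Of that list, Cd34 (747 and 110 CPM in replicates 1 and 2) and Hlf (225 and 10.7) went with the sum. Kit (31 and 158 CPM) went the other way. The part of these markers in the HOX and Meis1 levels was not tested. The members' median was -1.12, also with low genes at their bound or count ratio, against 0.0517 over all genes. Some tested members, such as Hoxb8, were near 0 outside WT-KI and could be kept by the filter through WT-KI. This median is therefore a description only.

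The single KO-KI leukemia had 6.06 CPM of Meis1 against 158 to 290 in WT-KI. In KO-KI against WT-KI, edgeR called 0 of the 25 tested members, where 3.01% of all genes were called (2.11% higher and 0.903% lower). At an unadjusted p under 0.05 there were 4, and limma voom called 0. DESeq2 called 2 (Hoxa10 and Meis1), with 11.7% of all genes called. A fit of these 2 groups alone called 7 of the 22 members it tested, with 27.1% of all genes called. With 1 library, the p-values assume that KO-KI varies like the other groups. Meis1 had a log2 fold change of -5.09 ± 1.43 (SE; edgeR adjusted p = 0.073) and Hoxa10 of -3.95 ± 1.49 (adjusted p = 0.167). Hoxb5 had 0 counts in KO-KI and 117 in WT-KI, at least 21.1-fold lower (adjusted p = 0.141), and Hoxb8 had 3 and 117, a ratio of 21.1 in CPM with a counting interval of 7.05 to 104 (adjusted p = 0.229). Pbx3 had 0.16, with 18.7 CPM in KO-KI against 15.4 to 18.3 in WT-KI. The median was -1.87 over the tested members, or -1.47 with low genes at their bound or count ratio, and -0.0458 over all genes. It has the same limit as the median for HET-KI. HET-KI and KO-KI share the WT-KI libraries, so their values are given side by side: Meis1 -1.47 and -5.09, Hoxa10 7.07 and 0.965 CPM, Pbx3 -2.44 and 0.16 for HET-KI and for KO-KI.

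Among genes that control the HOX clusters, between 0 and 12 were called in a comparison. Of 29 such genes (MLL, Polycomb and CDX genes, histone demethylases, DNA methyltransferases and others), 25 were tested. In the retroviral against the knock-in leukemias, 7 were higher and 1 lower, where 15% of all genes were higher and 17.1% lower (32.1% in either direction), and the median was 0.68 against 0.0816 over all genes. The 3 with the largest change were Mllt3 (1.85), a partner of the DOT1L complex, Phc1 (1.54), a Polycomb subunit, and Dnmt3a (1.54). In KO-ITD against KO-GFP, 1 was higher and 11 were lower, where 9.8% of all genes were higher and 9.85% lower, with a median of -0.59 against 0.19. Dnmt3b, the other de novo methyltransferase, had 3.01 ± 0.47 (SE; edgeR adjusted p = 0.0023), the histone demethylase Kdm6b had -1.71 ± 0.41 (adjusted p = 0.0151) and the histone acetyltransferase Kat6a had -1.55 ± 0.27 (adjusted p = 0.00454).

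Dnmt3b was also the 1 regulator called in WT-ITD against WT-GFP (3.35 ± 0.48, edgeR adjusted p = 0.00335; list median -0.28), where 2.24% of all genes were called. In KO-ITD against WT-ITD the 1 call was Dnmt3a itself (-1.35 ± 0.25, adjusted p = 0.0353; list median -0.27), where 0.49% of all genes were called, and in KO-GFP against WT-GFP and in the interaction there was none. In HET-KI against WT-KI 3 were lower, Phc1 (-1.75), Dnmt3a (-1.47) and Kat6a (-1.43), where 1.57% of all genes were lower, with a list median of -0.58. In KO-KI against WT-KI 2 were lower, Dnmt3a (-1.96) and Phc1 (-1.49), where 0.903% of all genes were lower, with a list median of -0.66. Phc1 was thus below WT-KI in both knock-in leukemia groups, which share those controls.

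Genes reported downstream of HOXA9 and MEIS1 (15, all tested) went both ways. In the retroviral against the knock-in leukemias 5 were higher and 6 lower, with a median of -0.58. The shares of all genes called were those given for the regulators, here and in the other comparisons, and were 3.43% higher in HET-KI and 2.11% higher in KO-KI against WT-KI. Trib2, a pseudokinase that Meis1 activates in mouse leukemia, was higher by 7.24, while Cd34 (-6.32) and Flt3 (-5.79), both of which mark progenitors, were lower. In KO-ITD against KO-GFP 4 were higher, led by the tumour suppressor Cdkn2a (7.23), the early T cell oncogene Lmo2 (3.85) and the survival gene Bcl2 (3.18), and 2 were lower, with a median of 1.36. In WT-ITD against WT-GFP the 1 call was Bcl2 (2.96 ± 0.65, edgeR adjusted p = 0.0342), with a median of 0.71. In HET-KI against WT-KI, Trib2 was lower (-4.9 ± 1.12, adjusted p = 0.0294) and Id2, an inhibitor of E proteins, higher (2.98 ± 0.44, adjusted p = 0.00843), with a median of -0.79. In KO-KI against WT-KI, Id2 was higher (3.35) and Sox4, a progenitor transcription factor, lower (-2.94), with a median of -1.6. None was called in KO-ITD against WT-ITD (median 0.3), KO-GFP against WT-GFP (0.09) or the interaction (0.05).

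Among the other TALE genes and the HOX partners, calls came only in KO-ITD against KO-GFP and between the models. In these, 19.6% and 32.1% of all genes were called. Of 9 other TALE homeobox genes 6 were tested, and Pknox1, which pairs with PBX proteins as MEIS proteins do, was the only one called: -0.97 ± 0.31 in KO-ITD against KO-GFP (SE; edgeR adjusted p = 0.0435) and 1.04 ± 0.29 in the retroviral against the knock-in leukemias (adjusted p = 0.0138). Of 6 HOX partner genes, Creb1 was lower in KO-ITD against KO-GFP (-1.68), and Cebpa (-5.1), the granulocyte transcription factor, and Nup98 (-0.75), a nucleoporin fused to HOXA9 in human leukemia, were lower in the retroviral than in the knock-in leukemias. No gene of these 2 lists was called in the other comparisons.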

How the data were processed

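PolyA RNA of 17 libraries (19 samples, 7 groups; the technical runs of each WT-GFP library share a column) was analysed from 1 gene table and 1 transcript table. Their values are estimated counts that the authors deposited, not scaled for depth or length. The submitters' processing notes name mm9, TopHat2 2.0.10, Cufflinks 2.1.1 (no version in the later records) and Cuffdiff 2.1.1 or 2.2.1. The sources used here do not say which step wrote the counts or whether it used strand, so genes that overlap on opposite strands, such as Hoxa11 with Hoxa11as (525 bases), are uncertain. Of the nonzero estimated counts, 98.34% were whole within 0.001, and all were rounded to whole numbers. Per-library FPKM files (9 of 17 libraries, assembled separately) were not used. Exon positions came from the deposited gene models, and promoters from RefSeq.

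Counts were fitted in R 4.3.3 with edgeR 4.0.16: filterByExpr left 15508 genes, libraries were scaled by TMM, and 1 quasi-likelihood model with a mean per group covered all libraries. Contrasts were tested two-sided with Benjamini-Hochberg adjustment over all genes, threshold 0.05. The scripts were checked on simulated counts. Alternatives were DESeq2 1.42.0, limma voom 3.58.1, RLE and upper-quartile scaling, no filter, the groups of a comparison alone, thymus libraries alone, first records alone (those listing Cuffdiff 2.1.1), a replicate block, leaving out each library and, chosen after the data were seen, libraries with Xist above 100 CPM and a crossed block for the GFP groups. CPM are counts divided by the scaled library size, times 1000000. A gene at 0 in 1 group has a fold bound against 3 counts over the group, and 1 to 3 counts a ratio with a 95% exact counting interval. Intervals cover counting error only. At 4933890 to 25331908 counts per library, 1 count is worth 0.04 to 0.189 CPM.

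Members and the lists (7 of cell type markers, HOX regulators, other TALE genes, genes downstream of HOXA9 and MEIS1, HOX partners) were chosen with earlier results of these data known. Some members enter the counts but are not reported here. Every other expressed or called member is named, with values in every library for those called in at least 1 comparison or with a group mean of at least 10 CPM. From other lists at most the 3 largest called changes of a comparison are named. Uncalled members close to the threshold in a comparison were picked for description after their values were seen. Replicate numbers were shared between groups, but deviations of same-numbered libraries did not correlate above 0.1 in every pair, so they were not taken as pairs. For KO-ITD against WT-ITD the correlations were 0.146, 0.353 and 0.075 (replicates 1, 2 and 3). In the other comparisons they ran from -0.308 to 0.168.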

Additional observations from a re-analysis of the deposited data

Results flagged for a closer look

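In several of the described members 1 of the 4 KO-ITD libraries stood apart from the other 3 by Dixon's gap criterion at 95%. Chance meets it in about 1 in 20 groups of normally distributed values, a rate that need not hold for CPM near 0. The share of all genes that meet it was not computed, so the genes below are a description only. Tested members with more than 3 counts over the KO-ITD libraries were examined, a limit chosen after their values were seen. KO-ITD replicate 4 was the highest for 4 genes: Meis2 was at 5.34 CPM there, against 0.165 to 0.722 CPM in the other 3, Hoxb3 at 1.82 against 0.11 to 0.361, Hoxa5 at 0.85 against 0.11 to 0.127, and Hoxa3 at 0.607 against 0. For Hoxa3 and Hoxa5 this rests on 5 and 7 counts in that library, and Hoxa3, at 0 in the other 3, meets the criterion at any level there. Pbx4 was at 13.8 CPM in KO-ITD replicate 3, against 3.4 to 4.71 CPM in the other 3. Both libraries came from thymus and list Cuffdiff 2.2.1, while KO-ITD replicates 1 and 2 came from marrow and list Cuffdiff 2.1.1. Source and record set thus cannot be told apart within KO-ITD. No explanation was tested.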

How the results depend on the processing

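No called member changed sign under any alternative. Hoxa4, Hoxa5, Hoxa6, Hoxa7, Hoxa9, Hoxa10, Hoxb3, Meis1 and Meis3 stayed past the threshold between the models in every alternative that gave a value. Counts of members called moved by over 1.5 times as follows, and the cause was not tested. With DESeq2 the counts were 2 for KO-ITD against WT-ITD, 5 for WT-ITD against WT-GFP, 3 for HET-KI against WT-KI and 2 for KO-KI against WT-KI. With limma voom HET-KI against WT-KI had 2. With the groups of a comparison alone, KO-ITD against KO-GFP had 1, HET-KI against WT-KI 0 and KO-KI against WT-KI 7. WT-ITD against WT-GFP had 1 among thymus libraries and 1 among libraries with Xist, where KO-ITD against KO-GFP had 2. Leaving out each library gave 0 to 1 for KO-ITD against WT-ITD, 0 to 3 for WT-ITD against WT-GFP, 0 to 5 for KO-ITD against KO-GFP, 0 to 2 for HET-KI against WT-KI, 11 to 14 between the models and 20 to 22 members expressed, and 0 throughout for KO-GFP against WT-GFP, the interaction and KO-KI against WT-KI, where KO-KI, with 1 library, could not be left out. With the replicate block the counts were 2 for HET-KI against WT-KI (Pbx3 and Hoxb8), 2 for WT-ITD against WT-GFP, 3 for KO-ITD against KO-GFP, 12 between the models and 0 elsewhere. For the 2 GFP groups same-numbered libraries correlated at -0.308, and the block with crossed numbers also called 0 members and 0 genes.

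Over all genes, KO-ITD against WT-ITD had 76 calls, but 1288 with DESeq2, 185 with limma voom, 207 among thymus libraries, 198 among first records, 26 with Xist (KO-ITD replicate 2 and WT-ITD replicate 3 alone, with the spread taken from the other groups) and 0 with its groups alone. WT-ITD against WT-GFP had 347, but 1425, 876, 910 and 569 with DESeq2, limma voom, first records and Xist, 904 with its groups alone and 567 with the replicate block. KO-ITD against KO-GFP had 3047, but 5015 with DESeq2, 439 with its groups alone and 1219 with Xist. HET-KI against WT-KI had 775, but 2383 with DESeq2 and 157 with its groups alone, and KO-KI against WT-KI 467, but 1819 with DESeq2, 881 with limma voom and 3676 with its groups alone. Between the models 4979 became 2776 with the groups alone, KO-GFP against WT-GFP 0 became 12 with DESeq2 and 3 with its groups alone, and the interaction 0 became 80 with DESeq2. Leaving out each library gave 10 to 641 calls for KO-ITD against WT-ITD (10 without WT-ITD replicate 2, 641 without KO-ITD replicate 2), 23 to 607 for WT-ITD against WT-GFP (23 without WT-GFP replicate 2), 147 to 3954 for KO-ITD against KO-GFP (147 without KO-GFP replicate 1), 38 to 1246 for HET-KI against WT-KI (38 without WT-KI replicate 2), 36 to 91 for KO-KI against WT-KI, 4372 to 5970 between the models, 0 to 39 for the interaction and 0 for KO-GFP against WT-GFP, so the shares of all genes printed beside member counts move with single libraries. Upper-quartile scaling moved the median of all genes by more than 0.1 in KO-KI against WT-KI only (-0.161 against -0.046). It also moved the split of calls to 432 higher and 367 lower for HET-KI (532 and 243 with TMM) and to 212 and 200 for KO-KI (327 and 140).

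Depth limits the low members most: with 0 to 16 counts over a retroviral group, Hoxa2, Hoxa4 and Hoxa6 have fitted folds that depend on the fit, and small differences at that level could not be detected.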

Other observations

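The deposited transcript counts split Meis1 between annotated transcripts by estimation. The transcript NM_001193271 took 40.1% of the Meis1 counts in KO-KI (Wilson 95% interval 31.3 to 49%), 48.5% and 84.9% in the HET-KI leukemias (46.4 to 50.6% and 77.4 to 89.8%), and 72.3%, 76.2% and 77.1% in WT-KI (69.4 to 75.1%, 73.9 to 78.2% and 75.7 to 78.4%). KO-KI and HET-KI replicate 1 were below the WT-KI range and HET-KI replicate 2 above it. The intervals cover counting error only, not the error of the estimated split, and no test was run. For Meis2, with 6 annotated transcripts, the estimated split differed between the 2 libraries with most counts. All 44 counts of KO-ITD replicate 4 were placed in NM_010825 (Wilson 95% interval 92 to 100%). In WT-ITD replicate 3, 99.4% of only 27 counts were placed in NM_001136072 (87.5 to 100%). These intervals too leave out the error of the estimated split, and no test was run.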
